A study of Mus musculus with 68 samples.

Results

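The 32 genes described here encode the enzymes that make cholesterol and long-chain fatty acids and the proteins that sense and carry sterols. They were chosen by symbol, from a list of pathway genes, and all 32 were among the 18088 genes of the deposited table. The 68 mice were of strain C57BL/6J. Their prefrontal cortex RNA was sequenced on postnatal day 25, 1 library per labelled animal, after about 3 weeks of treatment (day 3 to day 24) that reached the pups through their mothers' milk. The mice were labelled heterozygous for Adnp (HT), which encodes a chromatin-binding protein, or wild type (WT), and the labels give neither the nature of the mutant allele nor the drug doses. There were 8 female and 8 male HT mice and 8 female and 7 male WT mice under vehicle. Fluoxetine, a serotonin reuptake inhibitor, was given to 5 mice of each sex and genotype. Lithium, a mood stabilizer, was given to 4 female and 5 male HT mice and to 5 female and 3 male WT mice. The labels name no promoter, Cre driver, mother or litter, so p-values measure only the spread between these libraries.

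Cells build cholesterol from acetyl-CoA through mevalonate, isoprenoid diphosphates, squalene and lanosterol, and most cholesterol of the brain is made within the brain because lipoproteins of the blood do not cross its barrier. When sterols in the endoplasmic reticulum run low, SCAP escorts the SREBP transcription factors to the Golgi, where they are cut and released to switch on genes of sterol and fatty acid synthesis, while INSIG proteins hold SCAP back when sterols are plentiful. In the weeks after birth oligodendrocytes and astrocytes draw heavily on this pathway for myelin and growing membranes.

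The promoters of 4 members are shown because these genes stand for the start of the pathway, its mevalonate steps and its sterol sensor. The stretches come from RefSeq on GRCm38.p6, end at or before the transcription start, and are written 5′ to 3′ on the strand of the gene. Capitals mark matches on either strand to 3 short motifs: the sterol regulatory element core TCACNCCAC, the CCAAT box (ATTGG on the other strand) and the E-box CACGTG.
Hmgcs1, chr13:119690101-119690350, plus strand: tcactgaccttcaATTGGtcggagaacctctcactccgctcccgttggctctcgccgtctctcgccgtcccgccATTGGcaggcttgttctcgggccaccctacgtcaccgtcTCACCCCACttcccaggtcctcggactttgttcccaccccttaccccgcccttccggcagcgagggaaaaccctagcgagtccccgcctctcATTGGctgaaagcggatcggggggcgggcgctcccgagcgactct
Mvk, chr5:114444061-114444268, plus strand: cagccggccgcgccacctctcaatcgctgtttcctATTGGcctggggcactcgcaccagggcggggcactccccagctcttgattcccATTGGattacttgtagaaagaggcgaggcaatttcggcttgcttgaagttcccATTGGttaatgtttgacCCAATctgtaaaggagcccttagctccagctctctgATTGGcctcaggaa
Mvd, chr8:122443423-122443672, minus strand: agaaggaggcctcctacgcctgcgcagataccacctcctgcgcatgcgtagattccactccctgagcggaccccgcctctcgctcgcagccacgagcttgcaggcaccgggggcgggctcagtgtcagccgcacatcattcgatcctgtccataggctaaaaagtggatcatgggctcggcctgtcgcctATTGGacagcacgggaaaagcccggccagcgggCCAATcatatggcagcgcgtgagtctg
Insig1, chr5:28071162-28071362, plus strand: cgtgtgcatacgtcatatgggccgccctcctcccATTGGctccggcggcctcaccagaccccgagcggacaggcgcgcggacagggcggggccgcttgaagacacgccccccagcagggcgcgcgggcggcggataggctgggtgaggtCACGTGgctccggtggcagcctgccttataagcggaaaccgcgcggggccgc
Hmgcs1, which makes the HMG-CoA from which mevalonate is formed, has 1 match to the sterol regulatory element core, TCACCCCAC, 137 bases before the start. Mvk, the first kinase of mevalonate, and Mvd, the decarboxylase that ends the mevalonate steps, hold several CCAAT boxes and no such core in the stretches shown. Insig1 holds 1 CCAAT box and 1 E-box, the latter 101 bases before the start.

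Windows of 300 bases (250 before and 50 after the start) were found in RefSeq for 25 of the 32 members. A CCAAT box lay in the windows of 20 of the 25 genes (80%), against 41.1% of 27025 genes with a window. An E-box lay in 5 of 25 (20%, namely Dhcr7, Hsd17b7, Insig1, Sc5d and Scap), against 8.09% of all genes. The sterol core was found in 1 of 25 (4%), against 1.44%, and its 10-base form, with A before the core and C at its open position, in 0, against 0.0999%. No match in the 4 stretches overlaps another. Each match is a description of letters, and the absence of a match in these windows says nothing about a factor's binding. Of the 24 members without the core, 8 were lower under fluoxetine in HT in the comparison described below, against 0.809% of all genes tested. With only 1 member holding the core, Hmgcs1, which was not called lower, members with and without it cannot be compared.

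Levels are normalized read counts, as deposited. Per kilobase of exon sequence, the mean level over all 68 libraries was highest for Scd2, the brain's main stearoyl-CoA desaturase, at 6507, followed by Hmgcs1 at 2249 and the polyunsaturated fatty acid desaturases Fads2 at 1652 and Fads1 at 1302. The lowest were Tm7sf2, a sterol C14 reductase, at 126 and Lss, which closes squalene epoxide into lanosterol, at 127. The length counts all annotated exons of a gene together, 4403 bases for Tm7sf2 and 10787 for Lss, so these places depend on it. Not divided by length, the mean was 553 for Tm7sf2 and 1369 for Lss, against 419 for Ebp. All 32 members passed the filter on low values (mean of at least 5), as did 17922 of the 18088 genes, and the lowest value of any member in any library was 281 for Ebp.

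**Figure D1:**
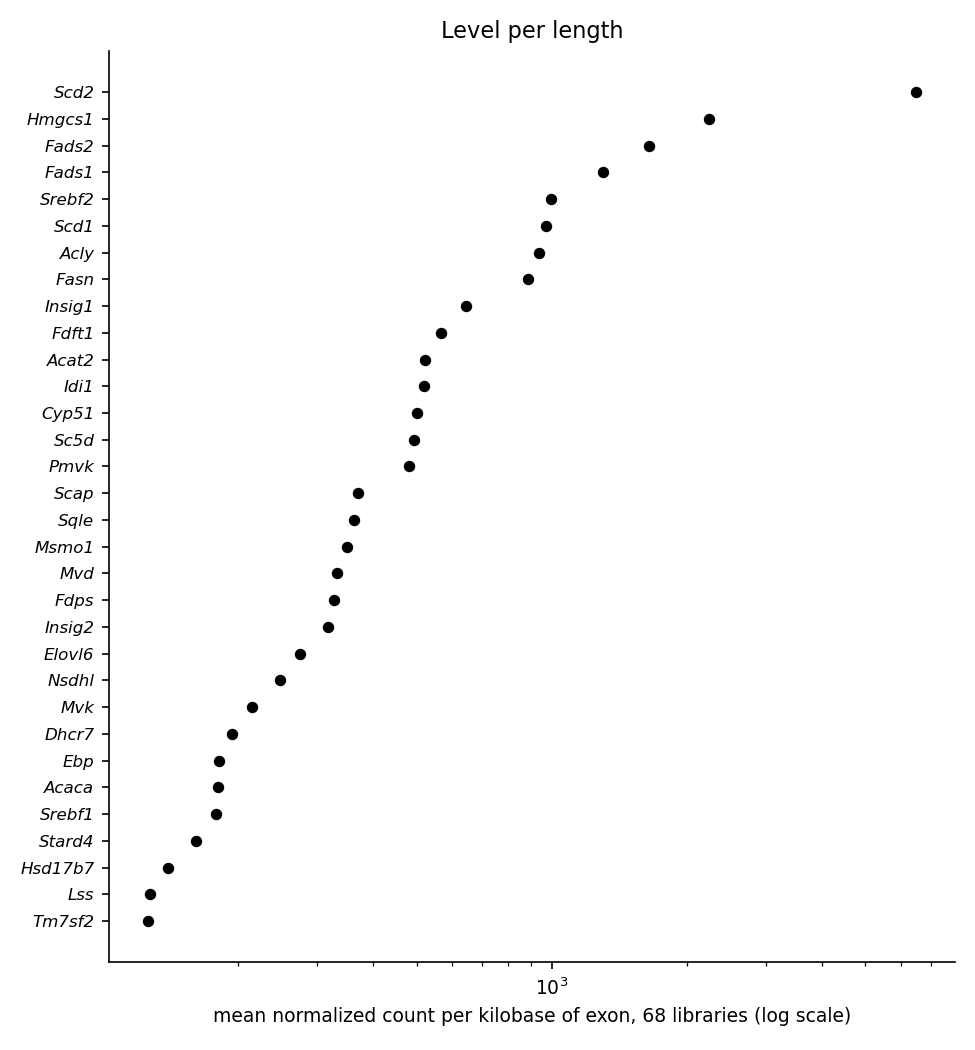
Mean normalized count per kilobase of exon for the 32 members over all 68 libraries, on a log axis, ordered by level. Scd2 stands at 6507 per kilobase, and Tm7sf2 and Lss are lowest at 126 and 127.

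The libraries differed in ways that bear on what follows. They held 22.4M to 37.5M recovered reads (median 30.7M, M for mega). Clustering on 361 pseudogenes divided them into 3 sets that the labels do not name: set 1 (28 libraries) with every fluoxetine library and 8 HT vehicle libraries, set 2 (28) with every lithium library, 6 HT and 5 WT vehicle libraries, and set 3 (12) with 10 WT and 2 HT vehicle libraries. Each comparison is therefore given over all libraries and, where 1 set holds both sides, within that set. The mean of Adnp was higher in libraries labelled HT than in WT under vehicle, fluoxetine and lithium, so Adnp does not check the genotype labels. It was 2261 against 1829 under vehicle, 1899 against 1519 under fluoxetine and 2307 against 1961 under lithium. Under vehicle HT libraries spanned 1730.2 to 2845 normalized counts, and WT libraries 1077 to 2290.2. The reason for the higher Adnp level was not tested. No neuron, astrocyte or oligodendrocyte marker was at 0 in any library. The same held for striatal neuron, microglia, mural, meningeal and blood markers, so it does not check the tissue label. Summed striatal neuron markers in HT mice read 4636, 5104 and 16010 as lowest, median and highest under fluoxetine and 4310, 5028.5 and 18886 under vehicle. The part of striatal markers in the results was not tested. Markers of olfactory bulb, which lies next to prefrontal cortex, also varied widely between libraries. Their summed level in HT mice was 4230.2, 12377 and 24813 as lowest, median and highest under fluoxetine and 3133, 6051 and 39936 under vehicle, so the fluoxetine median was the higher one, and in the vehicle libraries of set 1 it was 4269, 10249 and 39936.

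In HT mice 8 of the 18 sterol synthesis enzymes were lower under fluoxetine than under vehicle over all libraries, and 0 of the 18 passed within set 1 (15 lower at an unadjusted p under 0.05 in each of the fits). Over all libraries 13 of the 32 members fell and 0 rose (limma, adjusted p under 0.05, called passing from here on), against 0.809% of all genes tested that fell and 0.407% that rose. At an unadjusted p under 0.05 the counts were 25 lower and 1 higher. No share of all genes at an unadjusted p under 0.05 is given in this report, so such counts have no background beside them. By edgeR 13 were lower and 0 higher, against 1.18% of all genes called in either direction. The members that fell did so by small amounts, from a fold of 0.906 for Acaca to 0.819 for Scd1, and all differences below are on the scale of log2(value + 1). Below 0 were 29 of the 32 differences, with a median of -0.15, while the median of all genes tested was 0.004. Within set 1, which compares the same 10 fluoxetine libraries with 8 HT vehicle libraries, 2 members passed, Insig1 and Stard4, against 0.134% of all genes lower. There 30 of 32 differences lay below 0 and the median was again -0.15. Without HT vehicle male 3 or male 5 the count within set 1 was 0, without HT fluoxetine female 1 it was 6 (with Cyp51, Fasn, Lss and Mvd), and in 12 of the other 15 fits that left out 1 library it was 1.

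Of the 7 mevalonate genes 2 fell. Mvk, the kinase that phosphorylates mevalonate (chromosome 5, 114444269 to 114460591, GRCm38, plus strand), read 419, 517 and 591 normalized counts as lowest, median and highest of 10 fluoxetine libraries, and 524, 602 and 668 in 16 vehicle libraries. All 10 fluoxetine libraries were below the vehicle median and 6 were below every vehicle library, yet the groups overlapped. The call was lost without HT fluoxetine female 2. Its difference was -0.23 (SE 0.055, adjusted p = 0.018), and within set 1 -0.19 (adjusted p = 0.17).

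Mvd, the decarboxylase that yields isopentenyl diphosphate (chromosome 8, 122433601 to 122443422, minus strand), was the member whose groups were apart. Fluoxetine libraries read 479, 552 and 577, against 579.7, 636 and 749 under vehicle. Every treated library lay below every vehicle library. Among all genes tested this held for 1 of 17922 (0.00558%), which is Mvd itself. The means were 543 ± 35.4 (SD, n = 10) and 642 ± 50.3 (SD, n = 16), a difference of -0.24 (SE 0.062, adjusted p = 0.031). Within set 1 the vehicle libraries spanned 579.7 to 695, the groups again did not overlap (0.0167% of all genes, 3 of them), and the difference was -0.24 without passing (adjusted p = 0.073). The call over all libraries was lost when HT fluoxetine female 2, female 3 or male 3, or HT vehicle female 2, female 8 or male 7, was left out.

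The other 5 mevalonate genes did not pass. Hmgcs1 differed by -0.15 (95% interval -0.24 to -0.07, adjusted p = 0.067), Acat2, a thiolase that joins acetyl-CoA units, by -0.14, the isomerase Idi1 by -0.17 and farnesyl diphosphate synthase, Fdps, by -0.14. The phosphomevalonate kinase Pmvk was at 0.05, the one enzyme of the sterol route above 0.

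**Figure D2:**
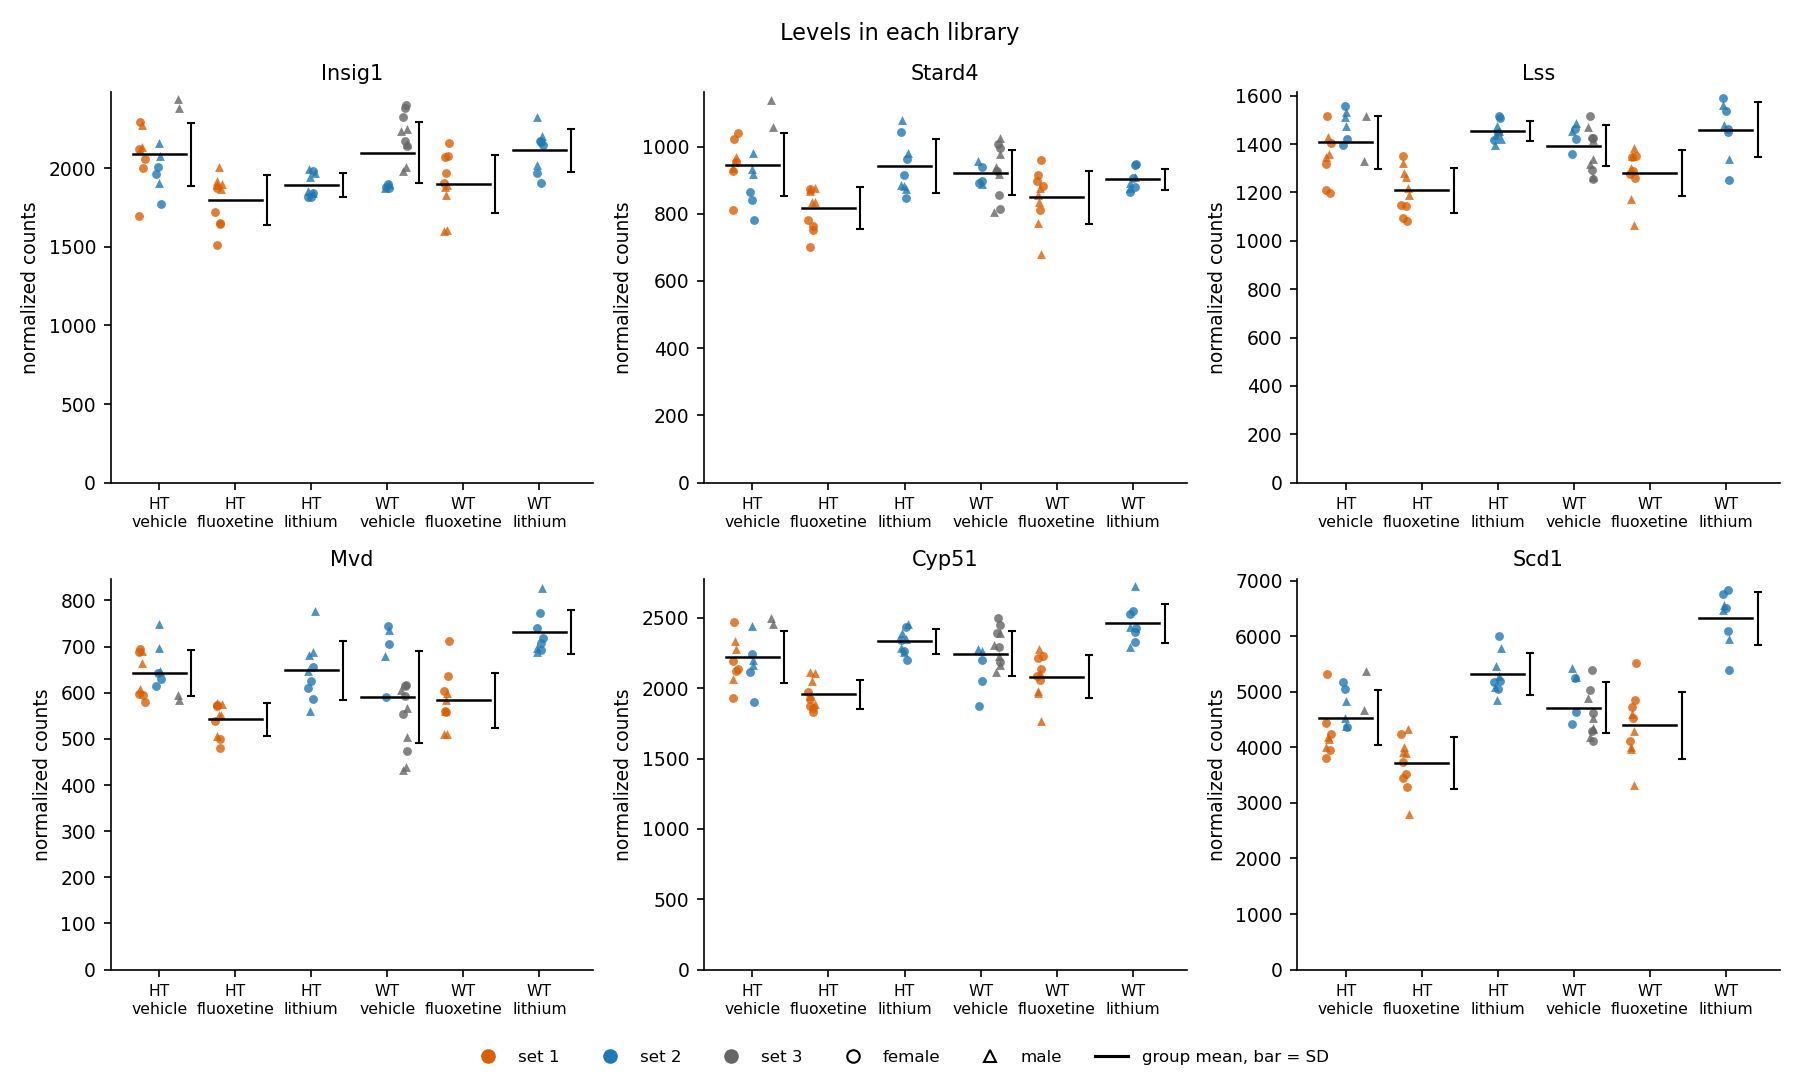
Normalized counts of 6 members in each library by genotype and drug (points; colour gives the library set and shape the sex), with the mean as a line and the SD as a bar. In the Mvd panel the 10 HT fluoxetine libraries (479 to 577) sit below all 16 HT vehicle libraries (580 to 749).

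All 3 genes that build squalene and close it to lanosterol fell. Squalene epoxidase, Sqle (chromosome 15, 59315077 to 59331192, plus strand), a rate-limiting oxygen-dependent step, read 1574, 1868 and 2106 under fluoxetine and 1731, 2085 and 2349 under vehicle. The ranges overlapped, with 9 of 10 treated libraries below the vehicle median. Its difference was -0.19 (SE 0.042, adjusted p = 0.013) and -0.18 within set 1 (adjusted p = 0.13).

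Lss (chromosome 10, 76531588 to 76557138, plus strand) read 1083, 1204 and 1352 under fluoxetine against 1196, 1412 and 1556 under vehicle. Although 10 of 10 treated libraries were under the vehicle median, the highest, from female 1 at 1352, stood well inside the vehicle range. The smallest adjusted p of any member was that of Lss over all libraries (0.0033), and its difference was -0.22 there and -0.16 within set 1, where it did not pass (adjusted p = 0.13). Fdft1, which condenses farnesyl diphosphate into squalene, fell by 0.21 on the log2 scale (adjusted p = 0.024) and stood at -0.16 within set 1.

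Of the 8 genes that turn lanosterol into cholesterol 3 fell. Cyp51, the lanosterol demethylase (chromosome 5, 4081145 to 4104746, minus strand), read 1828, 1934 and 2115 under fluoxetine and 1906, 2196 and 2499.6 under vehicle. Treated libraries crowded at the bottom of the vehicle range, 4 of them below every vehicle library. The difference was -0.18 (SE 0.039, adjusted p = 0.0082) over all libraries. Within set 1 it was -0.17 and did not pass (adjusted p = 0.073).

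Nsdhl, an X-linked sterol dehydrogenase (chromosome X, 72918557 to 72958514, plus strand), read 573, 633 and 669 under fluoxetine and 634, 708 and 821 under vehicle. The treated libraries lay at or below the lower part of the vehicle range, 5 of them under its lowest library. Its difference was -0.18 (SE 0.041, adjusted p = 0.014), and -0.15 within set 1 (adjusted p = 0.17), where 8 of 10 treated libraries lay below all 8 vehicle libraries. The reductase Dhcr7 fell too, by 0.17 (adjusted p = 0.025). Those that did not pass were Msmo1, the sterol C4 methyl oxidase (-0.22, adjusted p = 0.084), Tm7sf2 (-0.16), Hsd17b7 (-0.15), the isomerase Ebp (-0.08) and the desaturase Sc5d (-0.05).

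Among the sensors and carriers the 2 that fell were Insig1 and Stard4, the only members that also passed within set 1. Insig1 (chromosome 5, 28071363 to 28078662, plus strand), itself a gene that SREBP switches on, read 1509, 1872 and 2006 under fluoxetine, 1694, 2095 and 2437 under vehicle and 1694, 2118 and 2294 in the vehicle libraries of set 1. The groups overlapped although 10 of 10 treated libraries were below the vehicle median. The differences were -0.21 (SE 0.044, adjusted p = 0.0059) over all libraries and -0.23 (SE 0.044, adjusted p = 0.015) within set 1. The second call was lost without HT vehicle male 3 (adjusted p = 0.095) or HT vehicle male 5 (adjusted p = 0.070).

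Stard4, which carries cholesterol between membranes, read 699.7, 835 and 877 under fluoxetine, 781, 944 and 1139 under vehicle and 812, 953 and 1039.7 in the vehicle libraries of set 1. Its ranges overlapped at the low end of the vehicle range. The differences were -0.21 (adjusted p = 0.0087) and -0.22 within set 1 (adjusted p = 0.041), and the second call was lost in 14 of 18 fits that left out 1 library each, all but those without HT fluoxetine female 1 or male 4 or HT vehicle female 4 or 5. The genes for the transcription factors and their escort did not pass: Srebf2 stood at -0.10, Srebf1 at 0.01 and Scap at -0.04. Insig2, the second INSIG, had the highest difference of the 32, 0.14 (adjusted p = 0.11), and did not pass.

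Of the 8 fatty acid genes 3 fell. Acaca, the acetyl-CoA carboxylase that commits carbon to fatty acids, was the one of 4 synthesis genes that fell: it read 2640.1, 2849 and 3031 under fluoxetine and 2893, 3158 and 3318 under vehicle, a difference of -0.14 (SE 0.033, adjusted p = 0.014). Fluoxetine libraries filled the space below the vehicle median, 5 of them under the lowest vehicle library. Fatty acid synthase, Fasn, read 7734, 8824 and 10193 against 8179, 9981 and 10943 and did not pass (-0.14, adjusted p = 0.22). Acly, which supplies cytosolic acetyl-CoA, was at -0.05 and the elongase Elovl6 at -0.11.

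Both stearoyl-CoA desaturases, neighbours on chromosome 19, fell over all libraries and not within set 1. Scd1 (44394455 to 44407879, minus strand) read 2798, 3821 and 4329 under fluoxetine and 3800.2, 4415 and 5379 under vehicle, with 10 of 10 treated libraries below the vehicle median. Its difference was the largest among the members, -0.29 (SE 0.060, adjusted p = 0.0075), and it was -0.19 within set 1 (adjusted p = 0.25). The lowest of all 68 libraries for Scd1 was HT fluoxetine male 1. Scd2 (44293674 to 44306864, plus strand) read 28788, 32486 and 34609 against 31335, 36311 and 39080.5, -0.15 over all libraries (adjusted p = 0.016, lost without HT fluoxetine female 3 or male 1) and -0.10 within set 1. Fads1 was at -0.11 and Fads2 at -0.13, and neither passed.

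**Figure D3:**
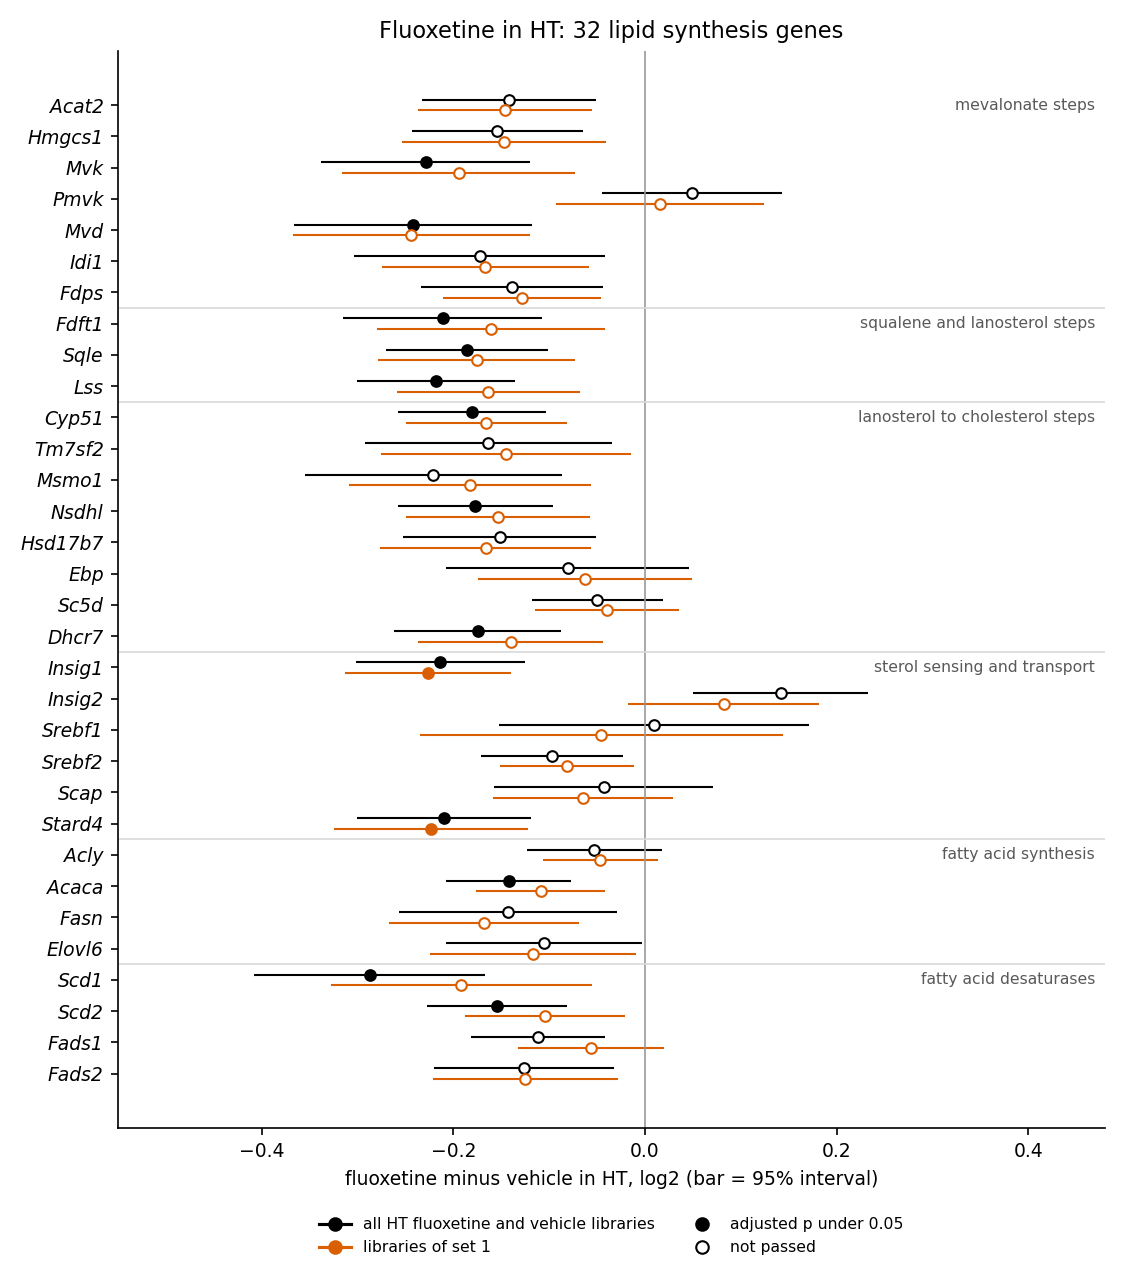
Log2 difference, fluoxetine minus vehicle in HT mice, for the 32 members with 95% intervals, over all libraries (black) and within set 1 (orange), with filled points where the adjusted p was under 0.05. All but Pmvk, Insig2 and Srebf1 lie below 0 over all libraries, and 13 points are filled in black and 2 in orange.

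With library set as an additive term over all 12 groups, 2 members passed, again Insig1 (-0.23) and Stard4 (-0.24), against 0.0725% of all genes lower, and 30 of 32 differences were below 0. By sex, 0 members passed in females (0.117% of all genes in either direction) and 0 in males (0%) by limma, with 30 and 29 of the 32 differences below 0 and a median of -0.16 in each. At an unadjusted p under 0.05 there were 19 lower and 1 higher in females and 19 lower and 0 higher in males. Within set 1 Insig1 passed in females (-0.27, adjusted p = 0.040, against 0.0279% of genes lower). The effect in males minus that in females passed for 0 members and for 0% of all genes (0 members at an unadjusted p under 0.05), and the single-member differences ran from -0.20 to 0.16.

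Genes of the same pathways outside the 32 give the surroundings, and in the 5 lists of them given here limma called 0 genes. Of 14 genes of sterol export, storage and turnover 0 passed (3 lower at an unadjusted p under 0.05, median -0.03), with the exporter Abca1 at -0.22, the lysosomal carrier Npc1 at -0.14 and the receptor Lrp1 at -0.18. Of 8 genes of SREBP processing and degradation 0 passed (0 unadjusted, median 0.02), with the ubiquitin ligase components Fbxw7 at 0.08, Rnf139 at 0.04 and Rnf145 at 0.02. The 12 genes of the isoprenoid branches that leave the route before squalene had a median of 0.02 and 0 passed (1 higher unadjusted), with the farnesyltransferase subunit Fnta at 0.11, the dolichol synthesis gene Nus1 at 0.05 and the prenyl protein protease Rce1 at 0.05. Of 22 other genes of fatty acid synthesis and elongation 0 passed (5 lower unadjusted, median -0.04), with the acetyl-CoA synthetase Acss2 at -0.13, the elongase Elovl7 at -0.21 and the acyl-CoA synthetase Acsl6 at -0.08. The 10 genes of myelin sphingolipids and plasmalogens had a median of -0.06 and 0 passed (3 lower unadjusted), and those with the smallest p were Ugt8a (-0.38), Fa2h (-0.34) and Gal3st1 (-0.21), which act in making the galactolipids of myelin.

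Cell type markers moved beside these genes, and in tissue RNA fewer cells of a type cannot be told apart from less RNA per cell. All 12 markers of myelinating oligodendrocytes lay below 0 (median -0.26 over all libraries and -0.11 within set 1) and 0 passed, with 3 of 12 at an unadjusted p under 0.05. Their summed level ran from 87554 to 185218 under fluoxetine and 108197 to 237715 under vehicle, and none was at 0 in any library. Of 10 endothelial markers 4 fell (median -0.18), against 0.809% of all genes lower, and 1 of 10 within set 1, against 0.134%. Their summed levels were 6955 to 9444 under fluoxetine and 7645 to 10106 under vehicle. Of 9 mural markers 3 fell, against the same 0.809% (median -0.18, and 0 within set 1), and their part in the results was not tested. Astrocyte markers had a median of -0.10 (summed level 114261 to 142185 against 112422 to 159615) and neuronal markers one of 0.06. All 8 markers of oligodendrocyte precursors lay below 0 and 0 passed (4 lower at an unadjusted p under 0.05, median -0.16, and -0.13 within set 1), with summed levels of 6885 ± 407 (SD, n = 10) under fluoxetine and 7881 ± 990.01 (SD, n = 16) under vehicle. All 7 markers of newly formed oligodendrocytes lay below 0 and 1 fell, against 0.809% of all genes lower (median -0.15, and -0.04 within set 1). Their summed levels were 14946 ± 646 (SD, n = 10) under fluoxetine and 16598 ± 1644 (SD, n = 16) under vehicle. The 8 olfactory bulb markers moved the other way: all lay above 0 over all libraries (median 0.91) and 7 of 8 within set 1 (median 0.11), and 0 passed in either fit, with 0 at an unadjusted p under 0.05. The part of the precursor, newly formed oligodendrocyte and olfactory bulb markers in the results was not tested. With the summed levels of myelinating oligodendrocytes, astrocytes and endothelial cells as covariates 1 member passed over all libraries, Stard4 (-0.23, adjusted p = 0.045). This compares with 0.0725% of all genes in either direction, and 28 of 32 members lay below 0 with a median of -0.10. Within set 1 with the same covariates Insig1 (-0.22) and Stard4 (-0.25) passed, both at adjusted p = 0.040, against 0.0614% of all genes in either direction.

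The mean log2 level of the 18 sterol enzymes, set to its mean over all libraries, summarises each library. HT fluoxetine libraries spanned -0.237 to -0.0736 (median -0.111) and HT vehicle libraries -0.116 to 0.136 (median 0.0382). WT fluoxetine libraries spanned -0.325 to 0.0208, the widest of the 6 groups, and WT vehicle libraries -0.145 to 0.116. HT lithium libraries spanned -0.0169 to 0.130 and WT lithium libraries 0.0544 to 0.247. The fluoxetine groups held the lowest libraries and the WT lithium group the highest, with overlap between each treated group and its vehicle group.

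**Figure D4:**
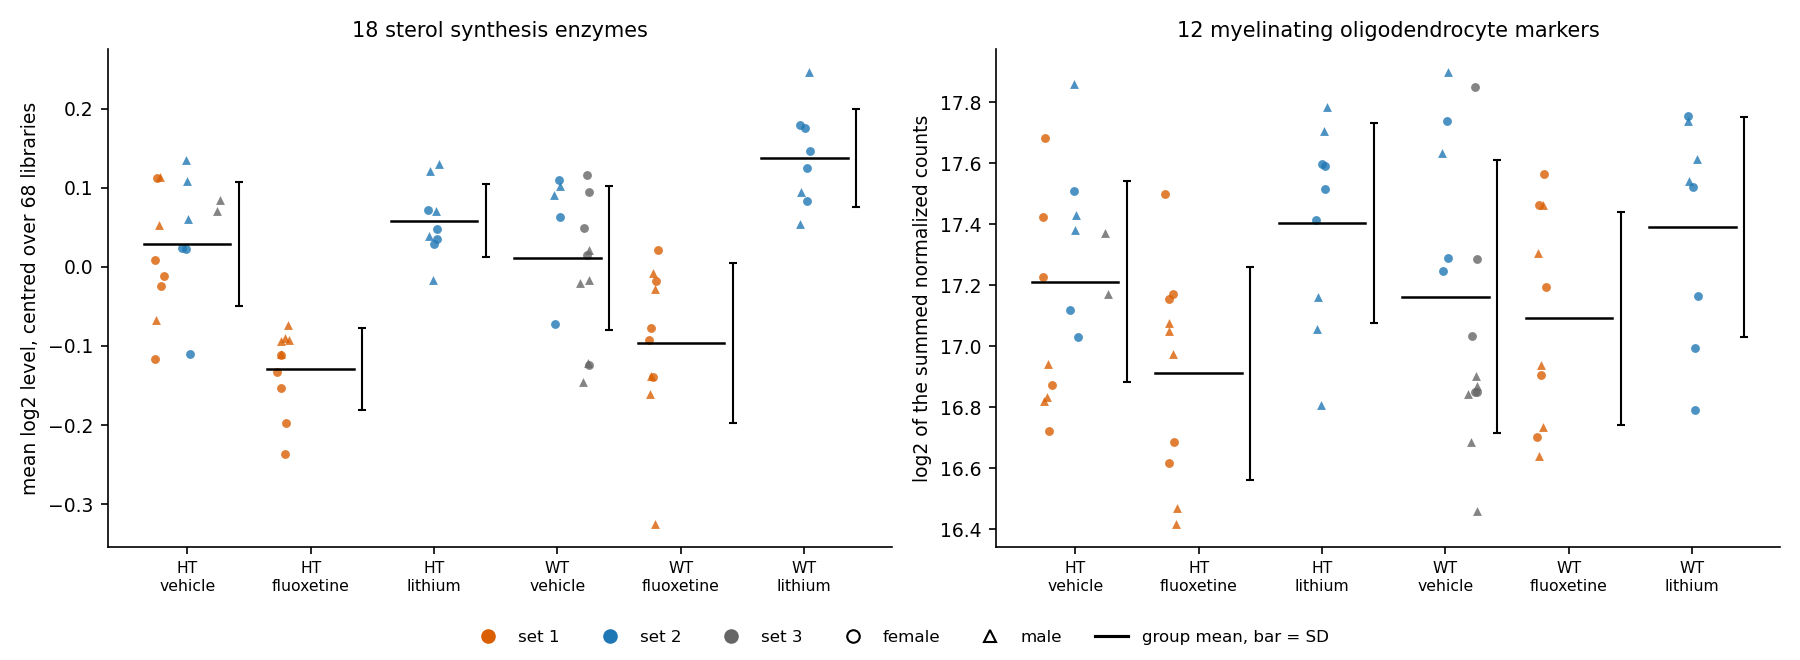
Mean log2 level of the 18 sterol synthesis enzymes relative to its mean over libraries, and log2 of the summed level of 12 myelinating oligodendrocyte markers, for each library by genotype and drug. The HT fluoxetine libraries span -0.237 to -0.0736 on the sterol scale and the WT lithium libraries 0.0544 to 0.247.

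In WT mice 7 members passed under fluoxetine, and no set holds both sides of that comparison. Over all libraries (10 against 15) 6 members fell, against 2.29% of all genes, and Insig2 rose, against 3.14%. The 6 were Nsdhl (-0.22, adjusted p = 0.0024), Fdft1 (-0.24), Msmo1 (-0.25), Idi1 (-0.23), Hsd17b7 (-0.20) and Insig1 (-0.14, adjusted p = 0.046). Insig2 was 0.22 higher (adjusted p = 0.0048). The median of the 32 was -0.08, and 24 lay below 0. The count of 7 was 3 without WT fluoxetine male 4, where Hsd17b7 was among those lost, and 4 without WT fluoxetine female 2. With set as an additive term 0 members passed, nor did any gene (0%), while 5 were lower at an unadjusted p under 0.05, and 28 were below 0 with a median of -0.07.

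The members also differed between WT vehicle libraries of different sets. Set 3 minus set 2 among WT vehicle libraries gave 4 members higher (21.0% of all genes higher) and 15 lower (21.4% lower). Idi1 (0.35), Msmo1 (0.30), Insig1 (0.22) and Elovl6 (0.21) were higher in set 3. The lowest of the 15 were Ebp (-0.46), Scap (-0.41), Fasn (-0.38), Mvd (-0.37) and Fdps (-0.31). Marker levels differed between these WT vehicle sets too. Summed olfactory bulb markers had a median of 11068 (highest 39060) in set 3 and 3054 (highest 13001) in set 2. Summed myelinating oligodendrocyte markers had medians of 119040 in set 3 and 203411 in set 2. The part of these markers was not tested. Among HT vehicle libraries set 1 minus set 2 gave 0 members (5 lower and 1 higher at an unadjusted p under 0.05), against 1.62% of all genes, and member differences of -0.16 to 0.13.

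Against the 5 WT vehicle libraries of set 2, 12 members were lower under fluoxetine (3.60% of all genes lower) and the median was -0.13. Against the 10 of set 3, 11 were lower (14.6%), 5 were higher (15.3%) and the median was -0.04. Fdft1 and Nsdhl were lower in both comparisons. Fdft1 (chromosome 14, 63145150 to 63179578, minus strand) read 1715, 2098 and 2341 under fluoxetine, 2341, 2677 and 2769.9 in vehicle set 2 and 1798, 2389 and 2711 in vehicle set 3. The highest fluoxetine library was level with the lowest of set 2, and most of the fluoxetine range overlapped set 3. Insig1 went from 0.01 against set 2 to -0.22 against set 3, and Ebp from -0.25 to 0.21.

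Insig2 (chromosome 1, 121304353 to 121332589, minus strand) read 1079, 1144 and 1275 under fluoxetine, 1009, 1049 and 1133 in vehicle set 2 and 797, 978 and 1134 in vehicle set 3. Treated libraries were at the upper end of both vehicle sets and overlapped each. Hsd17b7, a sterol ketone reductase, read 569, 649 and 739 under fluoxetine, against 623, 740.02 and 761 and 654, 752 and 862, with overlap in both.

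The effect of fluoxetine in HT minus that in WT passed for 0 members and for 0% of all genes by limma (6 members lower at an unadjusted p under 0.05), so a difference between the genotypes in this effect was not detectable here. The largest differences of effects were those of Fasn (-0.27, 95% interval -0.44 to -0.11, adjusted p = 0.17) and Mvd (-0.24, interval -0.42 to -0.07, adjusted p = 0.27). Of the 32 differences of effects 25 were below 0 (median -0.09). The arms share no libraries, and the WT arm rests on vehicle libraries of other sets.

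Under lithium Scd1 was the member raised over all libraries in both genotypes, and within set 2 it passed in WT mice. In HT mice (9 against 16) Scd1 was the 1 member that rose (0.24, SE 0.063, adjusted p = 0.035), against 1.03% of all genes. It read 4852, 5199 and 6009 in lithium libraries and 3800.2, 4415 and 5379 in vehicle libraries, so lithium libraries lay in the upper part of the vehicle range and beyond it. Within set 2 the difference was 0.17 (adjusted p = 0.35) and 0 members passed (6 higher at an unadjusted p under 0.05), against 0.162% of all genes in either direction. The median over the 32 was 0.04 over all libraries and 0.002 within set 2. The Scd1 call was lost in 12 of 25 fits that each left out 1 library: HT lithium females 1 to 4 and males 2, 4 and 5, and HT vehicle females 1, 5 and 6 and males 3 and 5.

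In WT mice (8 against 15) 13 members rose and 1 fell under lithium over all libraries, against 18.6% of all genes higher and 17.5% lower. Most WT vehicle libraries lie in set 3 and every lithium library in set 2, so drug and set cannot be told apart in that count. Within set 2 (8 against 5) 2 members rose, against 0.430% of all genes, and 23 of 32 lay above 0 with a median of 0.06. That count of 2 became 0 or 1 in 10 of 13 fits that left out 1 library each: WT lithium females 1, 3, 4 and 5 and males 1 and 2, and WT vehicle females 7 and 8 and males 6 and 7.

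The 2 were Scd1 and Cyp51. Scd1 read 5398, 6491 and 6830.3 under lithium, 4418, 5255 and 5431 in vehicle set 2 and 4109.7, 4431 and 5386 in vehicle set 3, a difference of 0.43 over all libraries (adjusted p = 6.3e-06) and 0.32 within set 2 (SE 0.082, adjusted p = 0.044). Only the lowest lithium library overlapped set 2, and none overlapped set 3. Cyp51 read 2289.9, 2432 and 2729 under lithium and 1875, 2202 and 2278 in vehicle set 2. Every lithium library lay above every vehicle library of that set, as for 0.580% of all genes, and the difference was 0.19 (SE 0.051, adjusted p = 0.0499). Insig1 also did not overlap within set 2, at 1907, 2156 and 2324 against 1872, 1877 and 1895, and did not pass (0.17, adjusted p = 0.11).

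Several members that rose over all libraries did not pass within set 2. Fdps went from 0.30 (adjusted p = 2.6e-05) to 0.09, Ebp from 0.37 to 0.06, Acat2 from 0.28 to 0.10 and Mvd from 0.33 to 0.08. Fdps read 1473, 1533 and 1849 under lithium against 1474, 1497 and 1532 in vehicle set 2, Ebp 446, 492 and 529.8 against 415, 486 and 534, and Acat2 1377, 1521 and 1637 against 1302, 1436 and 1514. In each of the 3 the ranges overlapped. These 4 members lay above 0 in each of the fits. The myelinating oligodendrocyte markers had a median of 0.35 over all libraries (4 of 12 rose, against 18.6% of all genes higher). Within set 2 their median was -0.15 (0 passed), and their part in the result was not tested. Summed olfactory bulb markers read 2809, 3917 and 10353 under lithium and 3007, 4840 and 39060 under WT vehicle. In vehicle set 2 they read 3007, 3054 and 13001. The library at 13001, WT vehicle female 7, had the lowest mean of the sterol enzymes in that set (-0.0726). The part of the olfactory bulb markers was not tested either.

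The effect of lithium in HT minus that in WT passed for 2 members over all libraries, against 1.65% of all genes lower: Mvd (-0.33, SE 0.094, adjusted p = 0.045) and Fdps (-0.25, SE 0.072, adjusted p = 0.045). Within set 2 the same differences were -0.12 and -0.10 and 0 members passed (2 lower at an unadjusted p under 0.05), against 0% of all genes.

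Between the genotypes under vehicle 6 members differed over all libraries and 0 within set 2. Over all libraries 6 rose in HT, against 7.74% of all genes: Scap (0.19, SE 0.051, adjusted p = 0.0082), Fasn (0.18), Insig2 (0.14), Ebp (0.17), Fdps (0.12) and Acly (0.10). Scap read 2252, 2894 and 3057 in HT libraries, 2913, 2958 and 3089.99 in WT vehicle set 2 and 1957, 2355 and 2529 in WT vehicle set 3. The libraries of set 3 were the low ones in both genotypes: the 2 HT vehicle libraries of that set read 2252 and 2449.98. Within set 2 (6 against 5) Scap was at -0.01, Insig2 at 0.01 and Acly at 0.00, 0 members passed (0.536% of all genes in either direction), 0 also at an unadjusted p under 0.05, and the median was -0.02. Among the males of set 3 alone, 2 HT libraries were set against 5 WT libraries. There 0 members passed (8 higher unadjusted), with 28 above 0 and a median of 0.09. Summed olfactory bulb markers were 4563 and 3721 in the HT libraries. In WT vehicle males 1 to 5 they were 27215, 17155, 25965, 3496 and 39040. The part of these markers in the difference was not tested. The count over all libraries was 3 without HT vehicle male 6, 7 or 8, WT vehicle female 5 or WT vehicle male 1, 2 or 5. It was 10 to 12 without WT vehicle female 6 or 8, WT vehicle male 6 or HT vehicle male 2.

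Under fluoxetine, where all 20 libraries lie in set 1, Scd1 was lower in HT than in WT, the 1 member that passed, against 0.653% of all genes. HT libraries read 2798, 3821 and 4329 and WT libraries 3319, 4417 and 5513, with overlap, and the difference was -0.24 (SE 0.067, adjusted p = 0.039). The call was lost with marker scores as covariates, over all libraries (-0.13, adjusted p = 0.075) and in the fit by set (-0.12, adjusted p = 0.080), and with only the compared groups in the fit, where 0 members passed. With spread estimated in the fit by set and no covariates the adjusted p was 0.019 (1.07% of all genes lower). The call over all libraries was lost in 11 of 20 fits without 1 library (HT females 1 to 4 and male 1, WT females 3 to 5 and males 1 to 3), and that in the fit by set was lost without HT fluoxetine male 1, WT fluoxetine female 5 or WT fluoxetine male 3.

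Under lithium, where all 17 libraries lie in set 2, 0 members passed in the fit over all libraries (2.51% of all genes in either direction) by limma, 7 were lower at an unadjusted p under 0.05 and edgeR called 1, with Scd1 at -0.25 (adjusted p = 0.053). In the fit by set Insig1, Scd1 and Pmvk were lower in HT, against 2.34% of all genes. Insig1 read 1815, 1852 and 1997 in HT and 1907, 2156 and 2324 in WT (-0.17, adjusted p = 0.019). Most WT libraries lay above the HT range for Insig1, with overlap at the bottom. Pmvk read 664, 775 and 887 in HT and 779, 870.4 and 996 in WT (-0.18, adjusted p = 0.049), with more overlap. All 18 sterol enzymes were below 0 here (median -0.07), 26 of the 32 members were below 0, and 0 to 5 members passed when 1 library was left out, 0 without WT lithium male 2, 1 without HT lithium female 1, female 3 or male 1, and 5 without HT lithium male 4 or WT lithium male 3.

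No member passed for a difference between the sexes. Male minus female, averaged over genotype and drug, was called in 0 of 32 (0 also at an unadjusted p under 0.05), against 0.100% of all genes in either direction, with a median of 0.003. Nsdhl and Ebp, both on the X chromosome, were among those that did not pass.

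**Figure D5:**
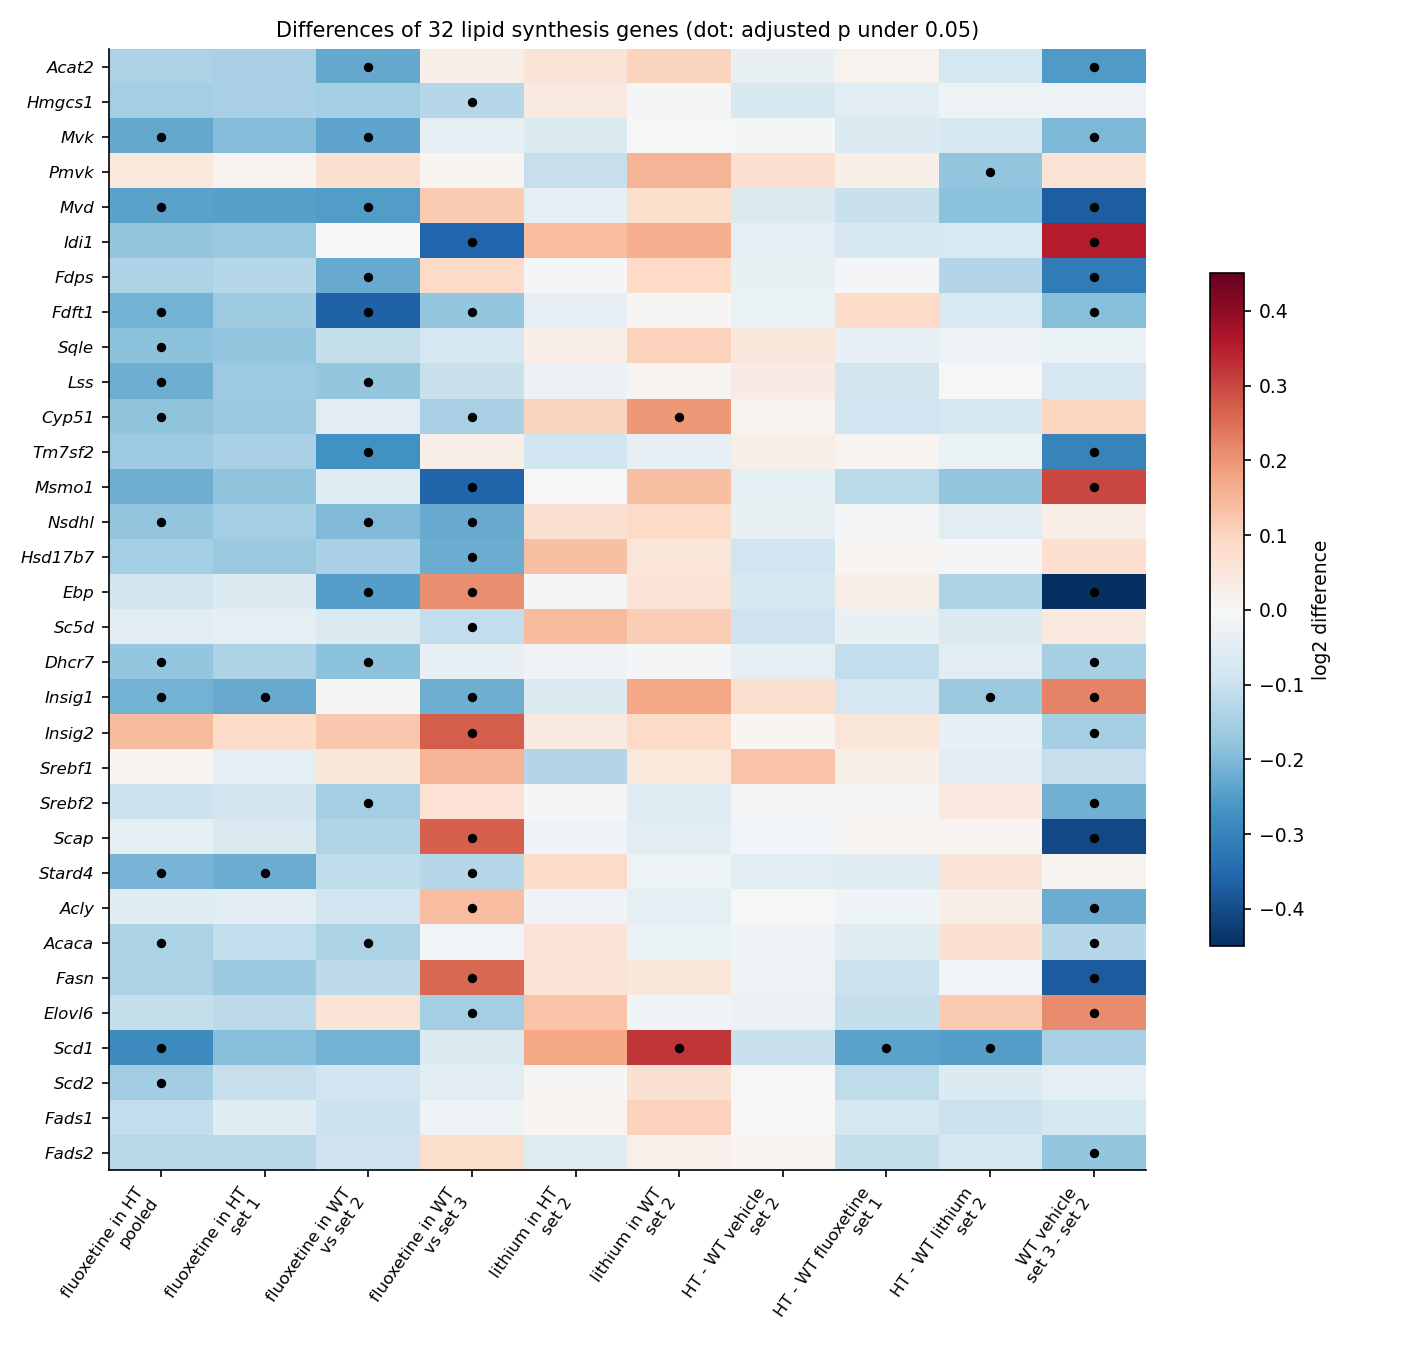
Log2 differences of the 32 members (rows, by role) in 10 comparisons (columns), coloured from -0.45 to 0.45, with a dot where the adjusted p was under 0.05. The first column, fluoxetine in HT over all libraries, is blue in 29 of 32 rows, and the last, WT vehicle set 3 minus set 2, holds 19 dots.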

How the data were processed

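Libraries were stranded and of polyadenylated RNA from prefrontal cortex (labels' protocols). The authors deposited 1 table for the series, whose normalized signal is the count of a gene's reads over the size factor of its library. Per the submitters' processing notes the tools were Salmon 0.11.2, DESeq2 1.19.11 and R 3.6.0 and the build was GRCm38, with no roles given. For annotation and strand in counting, the sources used here give nothing, so genes that overlap another are uncertain. Whole reads were recovered from the steps of the values (100% whole within 0.01 in each library).

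The main test was limma 3.58.1 (R 4.3.3) on log2(value + 1), with trend and robust shrinkage, over 12 groups (genotype by drug by sex) fitted together. Effects average the contrasts of females and males. The filter was a mean value of 5 or more, which kept 17922 genes and left out 166. P-values were adjusted by Benjamini and Hochberg over all genes tested, with a threshold of 0.05. An adjusted p for which no tool is named comes from limma. Folds understate the change of low genes.

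Library sets came from average linkage on 361 pseudogenes, and their number, 3, was set and not tested. Within sets the fit was of group by set. Symbols and positions came from GENCODE vM21 (18077 genes matched) and promoters from RefSeq. Members, lists and tests were chosen with earlier results of these data known. Per-library values are given for the 2 members of each of 6 role lists with the smallest p for fluoxetine in HT, and for up to 3 more that passed in each other comparison. Of each other list up to 3 genes with the smallest p are named. A further list of pathway genes is not reported here. Per-library values of Pmvk were added after its values were seen. Alternatives were other pseudocounts, filters and scalings, edgeR 4.0.16 and DESeq2 1.42.0 on recovered reads, fewer groups, a replicate block, marker scores, library set and leaving out each library. The code was tested on simulated data for fluoxetine in HT (17922 genes). It called 27 of 100 genes changed by 0.2 on the log2 scale, 79 of 100 changed by 0.5 and 5 of 17722 unchanged ones. The simulated counts held no library sets and no shared shifts in tissue content, so these rates may differ from those in the real libraries. The number of per-sample columns not used was 0.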

Additional observations from a re-analysis of the deposited data

Results flagged for a closer look

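Libraries of named members that stood apart from their group (genotype, drug and sex) are given here with the nearest library of the group. Of 220 such groups over 20 members, 9 (4.09%) held an outlying library by Dixon's criterion, and chance flags about 1 group in 20. In HT fluoxetine females, female 1 was high for Lss at 1352 (nearest 1149). In HT fluoxetine males, male 1 was low for both Scd1 at 2798 (nearest 3903) and Scd2 at 28788 (nearest 32728). Fdft1 was low in HT vehicle male 5 at 2066 (nearest 2507). Nsdhl was high in WT vehicle female 4 at 854 (nearest 735). In HT lithium females, Insig1 was high in female 2 at 1982 (nearest 1839), Scd1 was high in female 4 at 6009 (nearest 5199) and Acat2 was low in female 4 at 1413 (nearest 1438). Scap was high in WT fluoxetine male 2 at 2855 (nearest 2683).

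The effect of lithium differed between the genotypes for 2 members over all libraries by the test of that difference, Mvd at -0.33 and Fdps at -0.25 on the log2 scale (HT minus WT). Neither passed within set 2.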

How the results depend on the processing

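Pseudocounts of 0.5 and 5, no filter, a mean of at least 50, TMM scaling, edgeR and DESeq2 kept the count of members within 1.5 times of the main one, except for genotype under lithium, where TMM, edgeR and DESeq2 gave 1 in place of 0. With only the groups of the comparison in the fit the counts were 2 for fluoxetine in WT (main 7), 0 for genotype under vehicle (main 6), 0 for genotype under fluoxetine (main 1) and 2 for genotype under lithium. Within 1 library set they were 2 for fluoxetine in HT (main 13), 0 for lithium in HT (main 1), 2 for lithium in WT (main 14), 0 for genotype under vehicle and 3 for genotype under lithium. Scap reversed under genotype with vehicle, to -0.014. With marker scores as covariates the counts were 1 for fluoxetine in HT, 4 for fluoxetine in WT, 0 for lithium in HT, 2 for genotype under vehicle, 0 for genotype under fluoxetine (also 0 within 1 set) and 1 for genotype under lithium. With library set as an additive term, added after seeing the data, they were 2, 0, 0, 3, 0 and 2 for fluoxetine in HT, fluoxetine in WT, lithium in HT, lithium in WT, genotype under vehicle and genotype under lithium. The cause was not tested. With the replicate block the counts were 12 for fluoxetine in HT, 16 for fluoxetine in WT, 9 for lithium in HT, 22 for lithium in WT, 6, 1 and 1 for genotype under vehicle, fluoxetine and lithium. Of all genes, 398, 4003 and 3746 passed with the block for fluoxetine in HT, fluoxetine in WT and lithium in HT. Replicate numbers 6 to 8 occur only in vehicle libraries, all of set 2. The block is thus tied to library set, and drug and set cannot be told apart in its counts. The replicate numbers were not taken to pair the libraries, since in 0 of the 7 comparisons was the correlation of every same-numbered pair over 0.1. It was over 0.1 in 2 of 10 pairs for fluoxetine in HT (-0.10 to 0.14), 3 of 10 for fluoxetine in WT (-0.21 to 0.51), 1 of 9 and 1 of 8 for lithium in HT and WT, 7 of 15 for genotype under vehicle (-0.12 to 0.44), 3 of 10 under fluoxetine and 2 of 7 under lithium. Pairs that correlated best with their own number were 5 of 15 for genotype under vehicle, 3 of 7 under lithium and 0 or 1 in each of the other comparisons.

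Counts of all genes that moved were, for fluoxetine in HT (main 218), 370 with DESeq2, 398 with the block, 30 within 1 set, 13 with marker scores and 15 with set as a term, and for fluoxetine in WT (main 974) 80 with only its groups, 4003 with the block and 0 with set as a term. For lithium they were 449, 495, 3746, 29, 12 and 20 in HT (main 273, with DESeq2, only its groups, the block, 1 set, marker scores and set as a term) and 4265, 119 and 255 in WT (main 6478, with only its groups, 1 set and set as a term). For genotype they were 855, 96, 1776 and 218 under vehicle (main 2680, with only its groups, 1 set, marker scores and set as a term), 561 under fluoxetine with marker scores (main 355), and 805 within 1 set and 756 with set as a term under lithium (main 450). Within 1 set marker scores gave 11 in place of 30 for fluoxetine in HT, 3 in place of 29 for lithium in HT and 677 in place of 119 for lithium in WT.

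Leaving out 1 library at a time gave 9 to 14 members for fluoxetine in HT, 3 to 9 for fluoxetine in WT, 0 to 1 for lithium in HT, 11 to 19 for lithium in WT, 3 to 12 for genotype under vehicle and 0 to 1 for genotype under fluoxetine and under lithium. Within 1 set the ranges were 0 to 6 for fluoxetine in HT, 0 to 0 for lithium in HT, 0 to 3 for lithium in WT, 0 to 0 for genotype under vehicle, 0 to 1 for genotype under fluoxetine and 0 to 5 for genotype under lithium. With fits without 1 library and settings added after seeing the data left out, 22 of 76 counts of members moved by over 1.5 times. Over single members and counts of all genes in the same settings 250 values kept their call or count, 35 lost their call and 1 reversed, and 18 counts of all genes moved. In the check of the method a change of 0.2 on the log2 scale was called for 27 of 100 genes. Most members that fell changed by about that size. How often such a change is called among the members was not tested.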
